A study of Mus musculus with 2 samples.

Results

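A set of 8 genes of the hematopoietic niche was followed here, matched by symbol among the 32288 features counted in mouse periosteal scRNA-Seq: Cxcl12, Kitl, Il7, Angpt1 and Vcam1, which encode factors that stromal cells show to blood cells, and Cxcr4, Kit and Il7r, which encode receptors for 3 of those factors. All 8 symbols were found once, so that 8 of 32288 features were described. UMIs (molecules counted by their barcodes) were taken from both deposited libraries, in the barcodes with at least 500 genes, at least 500 UMIs and at most 10% mitochondrial UMIs. The 2 libraries were replicates of 1 group labelled wild type C57BL6, from mice at 4 weeks of age, with cells negative for CD45, CD31 and Ter119 sorted from the periosteum of femurs and tibias. No treatment is named in the labels, how many mice were pooled in each library was not given in the sources used here, and p-values therefore measured the spread between 2 libraries only.

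Blood-forming cells depend on a small set of signals from the stromal cells around them. CXCL12 is a chemokine that holds cells bearing CXCR4 in place, KITL (stem cell factor) keeps cells bearing the receptor tyrosine kinase KIT alive, and IL-7 is required by early B cells, which carry its receptor chain IL7R. ANGPT1 is a ligand of the receptor TEK (TIE2), and VCAM1 is an adhesion molecule bound by the α4β1 integrin of leukocytes. In bone marrow the best known source of CXCL12 and KITL is a perivascular stromal cell marked by the leptin receptor, Lepr.

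All 8 are protein-coding genes of the mouse build GRCm38. Cxcl12 lies at chr6:117168535-117181367 and Kitl at chr10:100015630-100100416, both on the + strand. Il7 (chr3:7569994-7613760), Angpt1 (chr15:42424723-42676977) and Vcam1 (chr3:116109949-116129688) lie on the - strand, and each overlaps 1 annotated gene of the opposite strand, from which its reads are told apart only by strand. Cxcr4 (chr1:128588199-128592293) and Il7r (chr15:9505788-9530176) lie on the - strand and Kit (chr5:75574916-75656722) on the + strand, without such an overlap. The start regions of Cxcl12 and Kitl are shown because both factors had the same leading stromal class. They are RefSeq windows of 250 bases (GRCm38.p6, + strand), for Cxcl12 chr6:117168285-117168534 and for Kitl chr10:100015571-100015820, with capitals marking each match, on either strand, to the GC box GGGCGG and to the TATA box TATAAA.
Cxcl12: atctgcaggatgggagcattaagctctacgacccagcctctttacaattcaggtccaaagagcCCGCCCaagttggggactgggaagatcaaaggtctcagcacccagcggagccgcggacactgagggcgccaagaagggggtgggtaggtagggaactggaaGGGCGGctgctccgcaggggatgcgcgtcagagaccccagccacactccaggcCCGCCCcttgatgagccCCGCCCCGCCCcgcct
Kitl: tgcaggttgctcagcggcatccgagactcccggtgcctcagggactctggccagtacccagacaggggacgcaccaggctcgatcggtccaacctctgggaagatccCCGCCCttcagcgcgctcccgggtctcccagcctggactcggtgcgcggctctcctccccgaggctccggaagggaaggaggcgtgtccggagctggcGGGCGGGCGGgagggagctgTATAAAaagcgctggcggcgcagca
For Cxcl12, 5 GC boxes were found and for Kitl 3, counting matches that overlap, and 32.74% of the 32851 mouse promoter windows of the same length held at least 1. Only Kitl of this pair held TATAAA, which 12.37% of all windows held. Their GC contents were 64.4% and 69.2%, beside a median of 52.4% over all windows. Among the other members, Cxcr4 held 3 GC boxes and 2 TATA boxes, each of 2 Kit starts held 1 GC box, and Il7r held no GC box but 1 CCAAT box (in 33.85% of windows). Neither the EBF core motif (in 0.7793% of windows) nor GTAAACA, the FOX core (in 3.166%) was found in any of the 5 members with a window. Il7, Angpt1 and Vcam1 are named only. These matches describe letters in a window and not binding.

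Library 1 held 9932 barcodes, of which 6276 were kept with a median of 8164 UMIs, and library 2 held 3659, of which 2893 were kept with a median of 6279. Although the sort was against CD45 and Ter119, 92.91% of the kept cells of library 1 and 61.15% of those of library 2 fell into blood clusters, so that the receptors could be read in blood cells of the same suspension. The kept libraries shared 7 cell barcodes. Although both libraries are labelled wild type, 3 reporter features were counted, and the kept cells of both libraries held reporter UMIs. EGFP had 0 UMIs in library 1 but 6837 in library 2, in 170 of 2893 cells, whereas tdTomato had 1482 UMIs in 1027 of 6276 cells of library 1 and 4627 in 846 of 2893 cells of library 2. Among the P-SSC-like cells of library 2, 116 of 286 held tdTomato and 13 held EGFP, and among the Lepr+ stromal-like cells 4 of 62 and 2 of 9 held tdTomato and none held EGFP. Blood classes held tdTomato too, as in 207 of 684 and 23 of 76 erythroid progenitor-like cells. What these UMIs come from was not tested. A test without one of the libraries would have no replicates, so that levels are given for each library on its own. Cells were clustered without the 8 members and without the ligands, receptors and signal transducers listed with them, and the clusters were named from marker lists, which gave 7 stromal and 11 blood classes, each written with "-like". The Lepr+ stromal-like class, on which the results for the factors turn, held 62 cells of library 1 and 9 of library 2. Its 7 markers were all detected, with Adipoq at 3389 and 1751 and Lepr at 808.7 and 627.1 CPM (UMIs of the gene per 1e+06 UMIs of the class) in libraries 1 and 2. Ptprc, which encodes CD45, stood at 4.48 and 0 CPM in these cells and at 1017 and 582.5 CPM in mature neutrophil-like cells. Other blood RNA was read there in library 1: all 8 erythroblast markers were detected and summed to 7632 and 235.2 CPM, with the globin gene Hbb-bt at 4270 and 26.1 CPM (69190 and 65900 in erythroblast-like cells), and the neutrophil gene S100a8 stood at 179.2 and 0 CPM. Its part in the levels of the members was not tested. Matrix RNA in these cells was higher in library 2, with Col1a1 at 320.4 and 3815 CPM (103100 and 90900 in osteoblast-like cells) and Fn1 at 60.5 and 601 CPM. Cebpa, the lowest of the 7 markers, stood at 369.6 and 78.4 CPM. The 9 cells of library 2 thus differed from those of library 1 in more than number, and the source was not tested. The class made up 13.93% of the stromal cells of library 1 and 0.8007% of those of library 2, and the P-SSC-like class held 19 and 286 cells. What sets these differences between the libraries was not tested. P-SSC stands for periosteal skeletal stem cell, but the class was named from Ly6a, Cd34, Clec3b, Mfap5, Pi16, Pdgfra, Thy1, Mfap4 and Eln. Prx1, LRP1 and CD13, by which the study describes the Prx1+ P-SSCs of the mouse, are not among these markers. The name P-SSC-like therefore does not identify stem cells. The study also names a cluster of Lepr+ P-SSCs in mouse periosteum. Whether the Lepr+ stromal-like class matches that cluster was not tested, so that the 2 class names do not set Lepr+ cells apart from P-SSCs. Below, 2 levels given for a class are always those of libraries 1 and 2, and intervals are exact 95% Poisson or binomial intervals that cover counting error only.

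Cxcl12 had 1 leading class. Lepr+ stromal-like cells held 17960 and 10300 CPM (8016 and 394 UMIs), P-SSC-like cells followed among the named classes with 211.9 and 618.6 CPM, and no named blood class passed 7.86 CPM. Unnamed stromal clusters 13 and 5 held 3790 and 2442 CPM in library 1 and 35.5 and 78.8 CPM in library 2, and all unnamed stromal clusters together held 14.84% of the Cxcl12 UMIs of library 1, beside 0.5229% in P-SSC-like cells. The values of the first 2 named classes did not overlap, whereas those of the next 2, smooth muscle-like (0 and 163.5 CPM) and tenocyte-like cells (44.5 and 104 CPM), did. Within the libraries, the Cxcl12 level in Lepr+ stromal-like cells was 84.8 times (95% interval 64.6 to 114) and 16.6 times (14.9 to 18.6) that in P-SSC-like cells. By comparison, the level in osteoblast-like cells was 4.05 and 1.69 CPM and that in chondrocyte-like cells 2.2 and 0.558 CPM.

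Kitl and Il7 had the same leading class. Kitl stood at 1584 and 522.6 CPM in Lepr+ stromal-like cells, and then at 463.2 and 85.6 CPM in smooth muscle-like cells, at 32.6 and 26.0 CPM in P-SSC-like cells and at 7.70 and 5.08 CPM in osteoblast-like cells. The smooth muscle-like class held only 4 and 20 cells, and each of its Kitl values came from 11 UMIs. Il7 was the sparsest factor, with 110 UMIs in the kept cells of library 1 and 16 in those of library 2. Of these UMIs, 86 and 2 lay in Lepr+ stromal-like cells, which gives 192.7 (154.1 to 237.9) and 52.3 (6.33 to 188.8) CPM. The value of library 2 lies under the level of 3 UMIs in that class, 78.4 CPM. No other named class passed 7.79 CPM of Il7 in either library. Smooth muscle-like and tenocyte-like cells of library 1 (4 and 3 cells) held 0 Il7 UMIs, but 3 UMIs there would exceed 52.3 CPM. A level like that of Lepr+ stromal-like cells in library 2 could therefore not be seen in them.

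Angpt1 and Vcam1 were also highest on average in Lepr+ stromal-like cells, but with further sources. Angpt1 stood at 235.2 and 261.3 CPM there, and at 20.4 and 20.8 CPM in P-SSC-like and 8.10 and 15.9 CPM in osteoblast-like cells. Smooth muscle-like cells held 3 Angpt1 UMIs in library 1, which is 126.3 CPM, and 0 in library 2. Vcam1 stood at 1302 and 862.3 CPM in Lepr+ stromal-like cells, and the 1642 and 77.9 CPM of smooth muscle-like cells spanned that range, so that the order of these 2 classes was not resolved. Among blood classes, monocyte/macrophage-like cells held 50.8 and 76.6 CPM of Vcam1, and nearly all of it lay in the small cluster led by the complement genes C1qa, C1qb and C1qc (16 and 20 cells), at 513.9 and 199.4 CPM. Neutrophil promyelocyte-like cells followed with 49.6 and 29.7 CPM and immature neutrophil-like cells with 31.3 and 10.8 CPM, whereas mature B-like cells held no Vcam1 UMI in either library.

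**Figure D1:**
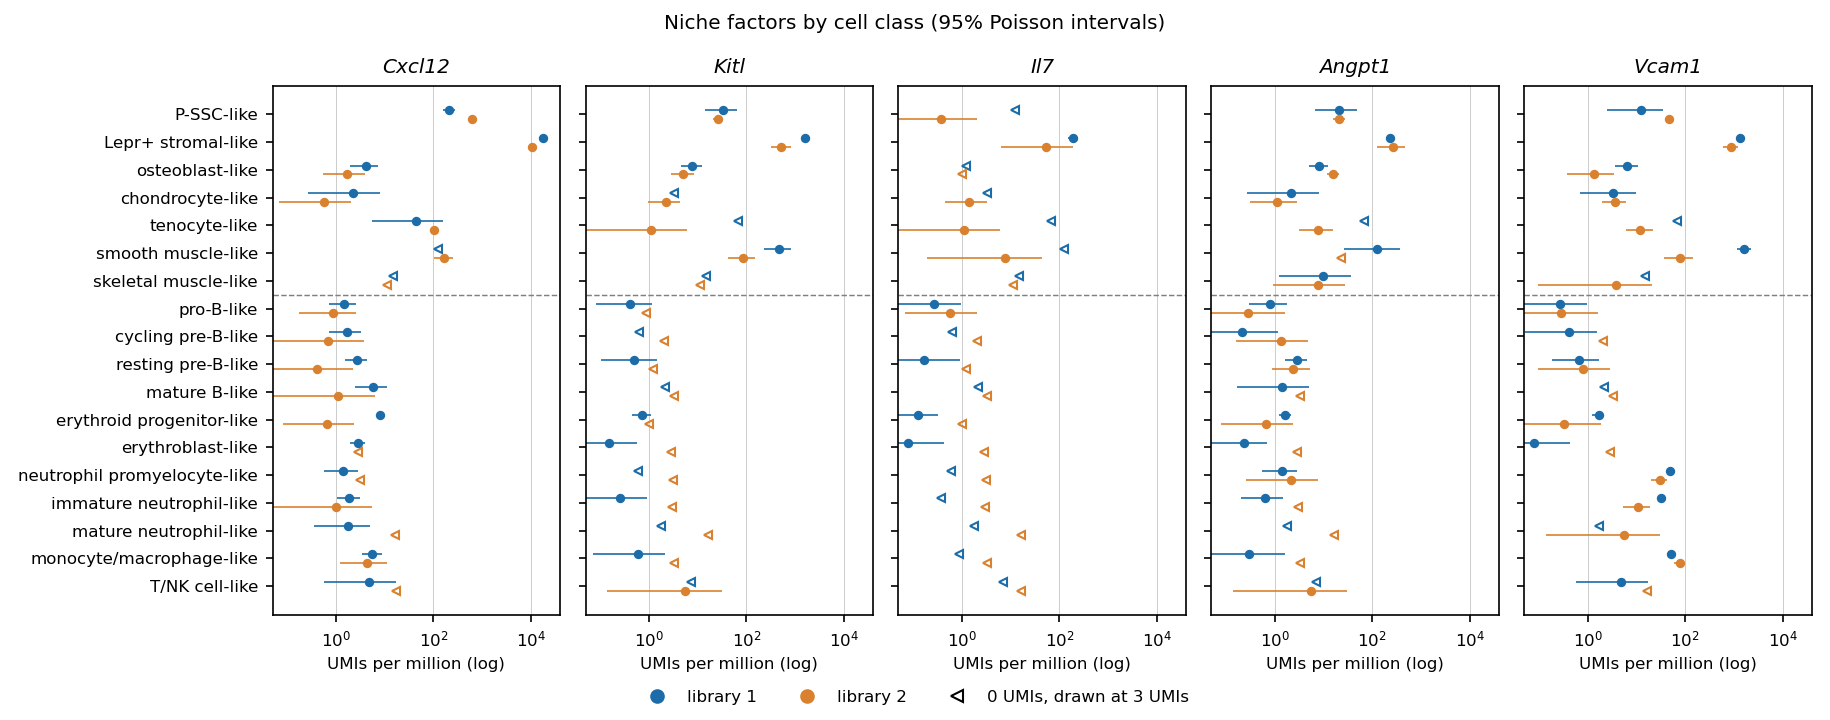
Level of each of the 5 niche factors (CPM, log scale) in each named class, with 1 point per library. In the panels of Cxcl12 and Kitl both points of the Lepr+ stromal-like class lie above those of every other named class. For Il7, smooth muscle-like and tenocyte-like cells of library 1 held 0 UMIs. A level like the lower one of the Lepr+ stromal-like class (52.3 CPM) could not be seen in them, so that their order against it is not read. In the panel of Vcam1 the smooth muscle-like points (1642 and 77.9 CPM) lie on either side of those of the Lepr+ stromal-like class.

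Per library, where the UMIs of a factor came from also followed how many cells of each class were caught. In library 1, the 62 Lepr+ stromal-like cells held 0.4849% of all UMIs, but 80.61% of the 9944 Cxcl12 UMIs, 79.8% of the 886 Kitl UMIs, 78.18% of the Il7 UMIs, 36.82% of the 1578 Vcam1 UMIs and 24.36% of the 431 Angpt1 UMIs. In library 2, the 9 such cells held 0.1245% of all UMIs and the P-SSC-like cells 8.759%. The Lepr+ stromal-like cells there held 17.04% of the 2312 Cxcl12 UMIs and 12.27% of the 163 Kitl UMIs. The P-SSC-like cells held 72.06% and 42.94%. The P-SSC-like cells of library 2 also held 33.16% of its 374 Vcam1 UMIs and 28.28% of its 198 Angpt1 UMIs, but 6.25% of its Il7 UMIs. Blood cells held 93.51% and 53.02% of all UMIs of libraries 1 and 2. Their shares were 58.93% and 15.66% of the Angpt1 and 47.34% and 30.75% of the Vcam1 UMIs, under their share of all UMIs. Of the UMIs of each receptor they held 97.5% to 99.8% (library 1) and 93.8% to 98.3% (library 2).

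**Figure D2:**
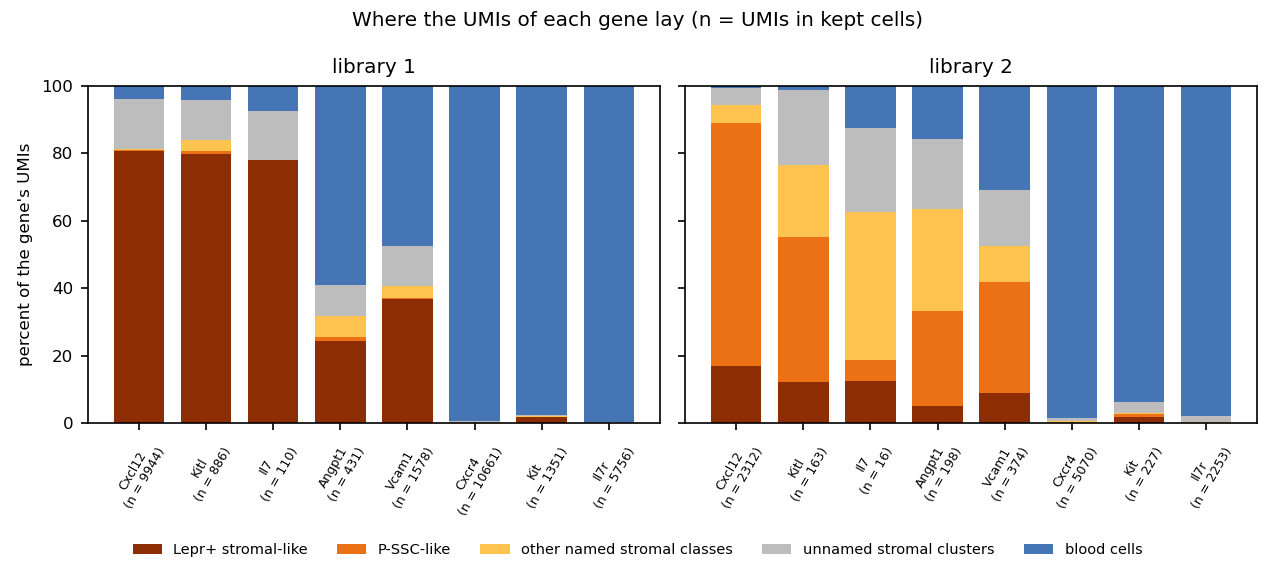
Share (%) of each factor's UMIs held by Lepr+ stromal-like cells, P-SSC-like cells, other stromal cells and blood cells, with 1 bar per library. The largest share of Cxcl12 belonged to the Lepr+ stromal-like cells in library 1 (80.61%) and to the P-SSC-like cells in library 2 (72.06%).

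Single cells carried several factors at once. Every Lepr+ stromal-like cell held Cxcl12 UMIs, between 17 and 345 in library 1 (median 125.5) and between 7 and 106 in library 2 (median 41). Kitl was detected in 58 of 62 and 6 of 9 of these cells, Vcam1 in 58 and 6, Angpt1 in 48 and 5, and Il7 in 32 and 1. All 5 factors were found together in 26 of 62 cells (41.94%) and in 1 of 9, and at least 4 of them in 50 of 62 and 4 of 9. Among P-SSC-like cells, by contrast, 0 of 19 and 0 of 286 held all 5, which by the limit of 3 counts, and not by the exact interval, allows up to 15.8% and 1.05% of cells with a UMI of each, and the cells without any of the 5 numbered 7 and 66. Cxcl12, with or without the others, was found in 8 of 19 and 191 of 286 P-SSC-like cells (66.78%). Depth differs between cells, and at a common depth of 1000 UMIs per cell the share with Cxcl12 was 99.98% and 99.97% in Lepr+ stromal-like cells and 14.72% and 29.97% in P-SSC-like cells. For Kitl at that depth the shares were 71.96% and 37.01% against 3.29% and 2.468%.

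**Figure D3:**
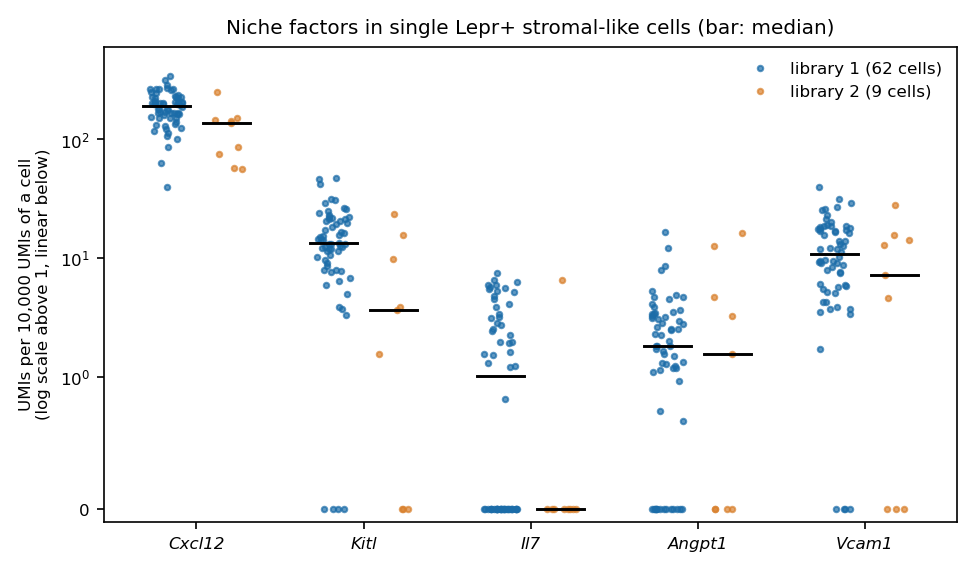
UMIs of each factor per 10000 UMIs in single Lepr+ stromal-like cells, 62 of library 1 and 9 of library 2, with 1 point per cell. No cell lies at 0 for Cxcl12, whereas 30 cells of library 1 and 8 of library 2 lie at 0 for Il7.

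The summed counts of the classes were then compared across the 2 libraries by edgeR's quasi-likelihood test, with p-values adjusted over all genes tested. The fit held no term for the library, so that the pairing of sums by library was not used except where a block is named. In the kept classes, 6 members passed the filter on low counts among stromal cells, and Cxcr4 and Il7r did not. Il7 and Kit passed it only through the Lepr+ stromal-like class itself, which leaves them no other direction. Vcam1 also passed only with that class, since outside it only P-SSC-like cells of library 2 (46.0 CPM) reached the level needed. Its differences are therefore given but not read as support, and no count over the members is read. Cxcl12, Kitl and Angpt1 were each called higher in Lepr+ stromal-like than in P-SSC-like cells, where 3.65% of the 9267 genes tested were called higher and 4.12% lower. On the log2 scale Cxcl12 differed by 4.61 ± 0.76 (SE), adjusted p = 0.00364, Kitl by 4.87 ± 0.74, adjusted p = 0.00266, and Angpt1 by 3.12 ± 0.49, adjusted p = 0.00241. Vcam1, with the limit given above, differed by 4.57 ± 0.74, adjusted p = 0.00241. Il7 differed by 7.87 ± 1.15 (adjusted p = 0.00273), a value that rests on a single UMI in the P-SSC-like cells and whose direction the filter fixed. The genes that were not kept out of the clustering helped to define the classes, so that these 2 shares are a background for reading the members and no result on them.

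Against osteoblast-like cells Cxcl12, Kitl and Angpt1 were again called higher, beside 7.51% of genes higher and 6.90% lower. So they were against chondrocyte-like cells, beside 10.9% and 10.6%. Cxcl12 was higher by 11.33 ± 1.03 (adjusted p = 6e-05) and 12.83 ± 1.13 (adjusted p = 3e-05) in the log2 scale. Kitl followed with 6.5 ± 0.78 and 8.51 ± 0.90. Vcam1 differed by 7.20 ± 0.84 and 7.39 ± 0.87, but it passed the filter only with the Lepr+ stromal-like class. Angpt1 differed by 3.40 ± 0.47 from osteoblast-like cells, among which it was detected in both libraries, and by 6.48 ± 0.60 from chondrocyte-like cells. Il7 was not detected in osteoblast-like cells of either library, so that no fitted fold is given; in library 1 its level in Lepr+ stromal-like cells was at least 158.5-fold higher than that of 3 UMIs. These calls depend on 9 cells of library 2 and on where the class is bounded. When the members and listed genes were let into the clustering, the class grew to 83 and 38 cells, and against P-SSC-like cells the adjusted p was 0.179 for Cxcl12 (log2 difference 3.97), 0.0657 for Kitl, 0.057 for Il7 and 0.0509 for Vcam1. At a coarser clustering (85 and 39 cells) it was 0.111 for Cxcl12 (3.94).

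**Figure D4:**
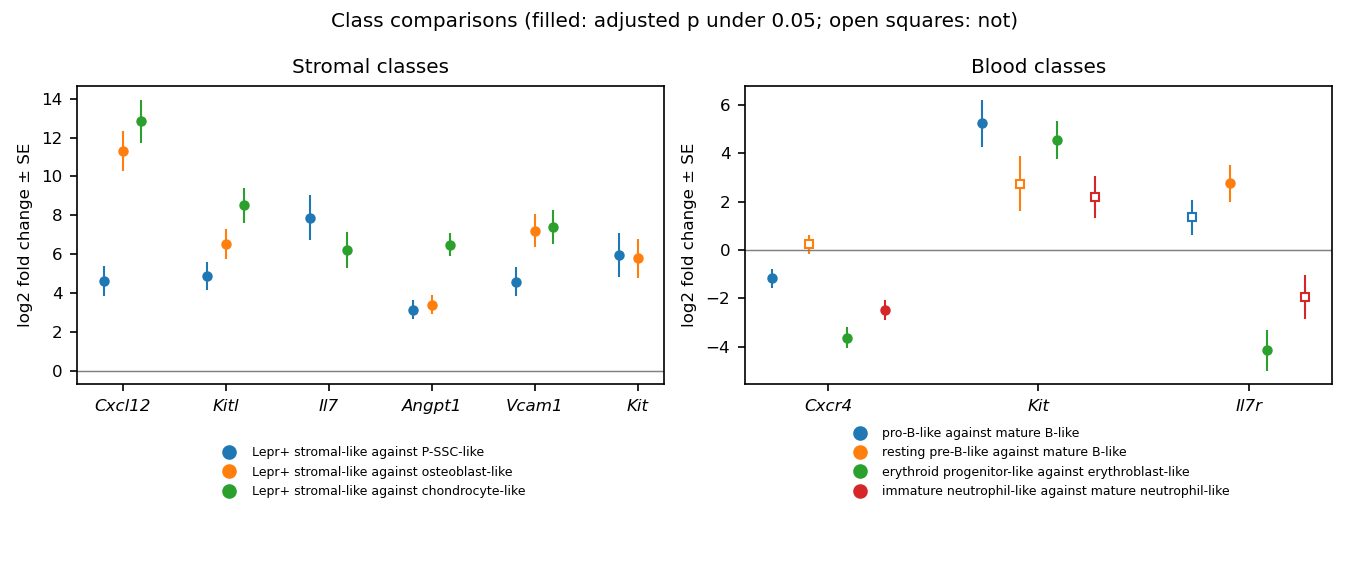
Log2 differences of the members between classes with their standard errors, from the edgeR fits. Values for which a compared class held no UMI in either library are left out. All the values shown for the Lepr+ stromal-like class lie above 0, but Il7, Kit and Vcam1 passed the filter only with that class.

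Kit, the receptor of KITL, was also read in Lepr+ stromal-like cells, next to its ligand. It stood at 53.8 (34.5 to 80.0) and 104.5 (28.5 to 267.6) CPM, from 24 UMIs in 10 of 62 cells and 4 UMIs in 1 of 9 cells. It was higher than in P-SSC-like cells by 5.94 ± 1.14 (adjusted p = 0.00957) and than in osteoblast-like cells by 5.78 ± 1.01 (adjusted p = 0.00305), and chondrocyte-like cells held 0 UMIs in both libraries. The P-SSC-like cells held 0 and 2 Kit UMIs and the osteoblast-like cells 3 and 0, so that these folds rest on very few molecules, and the filter fixed their direction. Beside this, the markers of the blood classes with Kit were read in the same cells as follows. All 6 erythroid progenitor markers were detected and summed to 53.8 and 0 CPM, 4 of 5 promyelocyte markers (Ms4a3 at 0) summed to 47.0 and 0 CPM, and 0 of 6 mast cell and basophil markers were detected. Of the hematopoietic progenitor markers 4 of 5 were detected (Mecom at 0), at 73.9 and 182.9 CPM, and all 5 in osteoblast-like cells, at 85.1 and 43.0 CPM. The part of such cells or of their free RNA in the Kit reading of library 1 was not tested, and in library 2, where all 4 UMIs lay in 1 cell, the first 2 of these lists summed to 0.

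The 2 clusters of the P-SSC-like class differed in level. The cluster led by Mfap4, Eln and Apod (3 and 114 cells) held 808.6 and 808.9 CPM of Cxcl12, and the one led by Pi16, Mfap5 and Ly6a (16 and 172 cells) held 105.6 and 522.9 CPM. In library 2, in which both are well filled, the first also held more Vcam1 (93.2 against 22.3 CPM), Kitl (49.9 against 14.0) and Angpt1 (32.2 against 15.1). No test was made between them.

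Cxcr4 was read widely among blood cells. Mature neutrophil-like cells held 505.8 and 920.9 CPM, resting pre-B-like 438.8 and 699.5, mature B-like 355.4 and 629.8, T/NK cell-like 326.2 and 506.2, cycling pre-B-like 287 and 438.6 and monocyte/macrophage-like cells 350.3 and 343.5 CPM. Across the libraries each of the 6 classes overlaps its next neighbour in this order. Within each library, however, all but the monocyte/macrophage-like cells stood in the same order. Of these neighbours, only resting pre-B-like and mature B-like cells were compared by a test (below), and Cxcr4 was not called between them. The other blood classes stood under these, with pro-B-like (141.7 and 278), immature neutrophil-like (122.1 and 99.4), neutrophil promyelocyte-like (63.7 and 82.8) and erythroblast-like cells (46.6 and 64.9 CPM), and erythroid progenitor-like cells came last with 11.8 and 5.63 CPM. Lepr+ stromal-like cells, the main source of its ligand per cell, held 2 and 0 UMIs.

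Kit and Il7r were restricted to fewer classes. Among named blood classes, Kit stood at 33.9 and 22.3 CPM in neutrophil promyelocyte-like, at 23.4 and 30.2 in erythroid progenitor-like and at 17.1 and 15.5 in pro-B-like cells, of which the first 2 overlap. The unnamed blood cluster 18, described under the other observations, held more Kit than each of these classes in both libraries. In the erythroid progenitor-like class, 728 of 745 and 89 of 91 Kit UMIs lay in the cluster led by Mt2, C1qtnf12 and Car1. In the pro-B-like class the cluster led by Vpreb1, Igll1 and Dntt held 66.5 and 32.6 CPM, and the one led by Bfsp2, Igll1 and Dntt held 9.56 and 7.58. Il7r was highest in cycling pre-B-like (389 and 442.6 CPM) and resting pre-B-like cells (392.6 and 357.4), which overlap, followed by pro-B-like (131.3 and 148.4), T/NK cell-like (100 and 77.9) and mature B-like cells (72.5 and 42.2). Lepr+ stromal-like and P-SSC-like cells held 0 Il7r UMIs in both libraries.

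**Figure D5:**
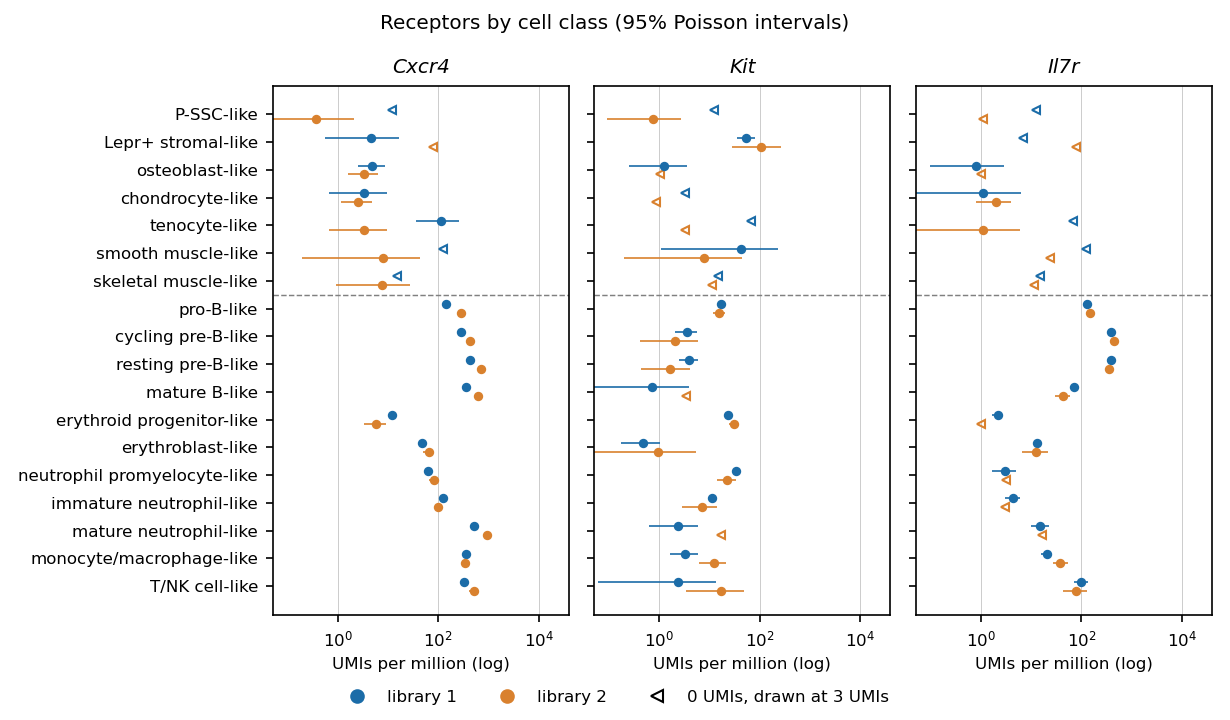
Level of each of the 3 receptors (CPM, log scale) in each named class, with 1 point per library. Cxcr4 lies above 100 CPM in most blood classes, Il7r above 300 CPM in the cycling and resting pre-B-like classes only, and Kit highest in the Lepr+ stromal-like class.

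Along the B lineage the receptors, read as shares of class UMIs, did not move together. Pro-B-like cells held more Kit than mature B-like cells, in which 1 and 0 UMIs were found, with a log2 difference of 5.24 ± 0.99 (adjusted p = 0.00066), and less Cxcr4, by -1.17 ± 0.39 (adjusted p = 0.0421). Thus 2 of 5 members tested were called, 1 in each direction, beside 10.8% of 11397 genes higher and 8.07% lower. The Cxcr4 call is at the threshold: over 10 alternatives its adjusted p ranged from 0.00436 to 0.156 and was above 0.05 in 6. Median depth was 11857 and 6240 UMIs in pro-B-like and 3384 and 3249 UMIs in mature B-like cells. A lower share is therefore not a lower count per cell, and the part of depth in this difference was not tested. Il7r differed by 1.36 ± 0.72 (adjusted p = 0.209; with the library as a block 1.4, adjusted p = 0.0316). Between resting pre-B-like and mature B-like cells 1 of 5 members was called, beside 2.04% of genes higher and 1.75% lower: Il7r, higher by 2.76 ± 0.75 (adjusted p = 0.0446). Cxcr4 differed there by 0.24 ± 0.38 (adjusted p = 0.894).

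Along the erythroid lineage Kit and Cxcr4, read as shares of class UMIs, moved in opposite directions. Erythroid progenitor-like cells held more Kit than erythroblast-like cells (0.465 and 0.955 CPM) by 4.57 ± 0.78 (adjusted p = 0.000212), less Cxcr4 by -3.62 ± 0.43 (adjusted p = 2.25e-05) and less Il7r by -4.14 ± 0.84 (adjusted p = 0.00136), so that 3 of 5 members were called, beside 13.4% of genes higher and 18.3% lower. The Kit call rests on 1 cluster: at a finer clustering the difference was 0.76 (adjusted p = 0.606), and with the members let into the clustering it was 1.65 (adjusted p = 0.196). Of the 171 and 13 Il7r UMIs of erythroblast-like cells, 91 and 11 lay in a small cluster of 69 and 17 cells led by Bpgm, Hba-a2 and Tmcc2, at 175.5 and 142.1 CPM, and Cxcr4 stood at 190.9 and 258.4 CPM there. B cell RNA moved with these differences: Cd79a, a chain of the B cell receptor, stood at 69.5 and 76.4 CPM in erythroblast-like and at 15.6 and 1.66 CPM in erythroid progenitor-like cells, and its part in the Il7r and Cxcr4 values was not tested. Median depth was 49848.5 and 45552 UMIs in erythroid progenitor-like and 11059.5 and 10154 UMIs in erythroblast-like cells. Hemoglobin genes held 42.14% and 44.53% of the UMIs of the latter. The part of depth and of hemoglobin in the member differences was not tested.

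In neutrophils Cxcr4, as a share of class UMIs, was lower at the immature stage. Median depth was 15186.5 and 18442 UMIs in immature and 4393 and 3540 UMIs in mature neutrophil-like cells, and its part was not tested. Immature neutrophil-like cells held less than mature ones by -2.46 ± 0.41 (adjusted p = 0.00026), and more Vcam1 by 5.15 ± 1.24 (adjusted p = 0.00398), so that 2 of 5 members were called, beside 18.0% of genes higher and 8.65% lower. The Vcam1 difference comes from 248 and 11 UMIs in immature against 0 and 1 in mature neutrophil-like cells, and at a coarser clustering it was 3.10 (adjusted p = 0.326). Kit differed by 2.21 ± 0.86 (adjusted p = 0.0598; with the block 2.22, adjusted p = 0.0288; at the coarser clustering -0.20, adjusted p = 0.967). Il7r differed by -1.94 ± 0.90 (adjusted p = 0.12; with the block -1.93, adjusted p = 0.0418).

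Over whole compartments, stromal cells held 1600 and 159.1 CPM of Cxcl12 against 4.48 and 0.859 in blood cells, and 142 and 11.2 CPM of Kitl against 0.441 and 0.123. For Il7 the values were 17.1 and 0.969 against 0.0929 and 0.123 CPM. For Angpt1 they were 29.6 and 11.6 against 2.95 and 1.90 CPM, and for Vcam1 139.1 and 17.9 against 8.68 and 7.05 CPM. The receptors stood the other way round. Cxcr4 was at 10.6 and 5.89 CPM in stromal against 123.1 and 305.8 in blood cells, Il7r at 2.34 and 3.25 against 66.7 and 135.3, and Kit at 5.69 and 0.969 against 15.3 and 13.1. Of the stromal Il7r UMIs, 11 and 39 lay in unnamed clusters and 3 and 8 in named classes, and 41 and 59 Cxcr4 UMIs lay in unnamed clusters. These include stromal cluster 13, whose leading genes are those of B cells, so that these stromal values are not levels of named stromal classes. The mean of 4 stromal classes was fitted against the mean of 11 blood classes, without the Lepr+ stromal-like class because of its 9 cells. Cxcr4 was lower in stromal classes by -6.48 ± 0.32 (adjusted p = 9.61e-15), beside 21.3% of 13385 genes higher and 28.6% lower. In those stromal classes Cxcr4 was near the floor: P-SSC-like cells held 0 and 1 UMIs and skeletal muscle-like cells 0 and 7.57 CPM. The size of this Cxcr4 difference therefore rests on few molecules there. Il7 did not pass the filter. The other 6 members held no UMI in either library in at least 1 of the 15 classes (Cxcl12 in skeletal muscle-like, Angpt1 in mature neutrophil-like, Vcam1 in mature B-like cells, and Kitl, Kit and Il7r in more than 1 class), where a fitted mean fold depends on the prior count, so that only their levels are given.

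Other genes of the same signals were followed in 3 lists: 22 further ligands and adhesion molecules, 22 further receptors and 18 signal transducers of CXCR4, KIT and the IL-7 receptor. Against osteoblast-like cells, 9 of 14 ligands tested were higher in Lepr+ stromal-like cells and 0 lower, beside 7.51% of all genes higher and 6.90% lower. Their median log2 difference was 3.76, beside -0.06 over all genes. Cxcl14, a chemokine, stood at 1738 and 3580 CPM against 0.81 and 2.37 (9.59 ± 1.56, adjusted p = 0.00111). Il34, which shares the receptor of CSF1, and Ccl19, a chemokine for lymphocytes, were higher by 7.64 ± 1.09 and 7.21 ± 1.09. Il34 stood at 118.7 and 52.3 CPM in Lepr+ stromal-like cells, in library 2 under the level of 3 UMIs. Both of these folds rest on few UMIs in library 2. Against chondrocyte-like cells 10 of 14 ligands were higher and 2 lower (median 4.26), beside 10.9% of all genes higher and 10.6% lower. Csf1, the growth factor of macrophages, stood at 313.6 and 365.8 against 2.2 and 4.74 CPM (5.54 ± 0.50, adjusted p = 4.72e-05). Against P-SSC-like cells the list split, with 1 of 14 higher and 3 lower, beside 3.65% of all genes higher and 4.12% lower. Higher was Spp1, osteopontin (6.64 ± 1.62), and lower were Fn1, fibronectin (-4.66 ± 0.87), Ptn (-2.44 ± 0.63) and Angptl2 (-2.23 ± 0.52). Spp1 stood at 510.8 and 5670 CPM in Lepr+ stromal-like and at 28.5 and 16.7 CPM in P-SSC-like cells, a wide spread between the libraries. How many listed ligands passed the filter on low counts only through the Lepr+ stromal-like class was not tested. The counts over this list are therefore a description and not a result.

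Of the further receptors, Notch1 was higher in Lepr+ stromal-like than in P-SSC-like cells, by 2.54 ± 0.66 (adjusted p = 0.035). It was higher by 3.82 ± 0.65 and 3.78 ± 0.68 than in osteoblast-like and chondrocyte-like cells. Its levels were 44.8 and 52.3 CPM in Lepr+ stromal-like cells, in library 2 under the level of 3 UMIs, and at most 8.15 CPM in the others. Of the classes compared here, only the Lepr+ stromal-like class reached the level needed to pass the filter. These Notch1 differences are therefore not read as support. Tek, the receptor of ANGPT1, was not detected in Lepr+ stromal-like cells and stood at 44.8 and 25.6 CPM in P-SSC-like cells. Ackr3, the atypical receptor that takes up CXCL12, stood at 436 and 380.6 CPM in P-SSC-like cells, at 0 and 182.9 CPM in Lepr+ stromal-like cells and at 8.51 and 16.9 CPM in osteoblast-like cells. Of the transducers, 0 of 13 tested were called between Lepr+ stromal-like and P-SSC-like cells, beside 3.65% of all genes higher and 4.12% lower. Stat5b, which acts below the cytokine receptors, was higher in Lepr+ stromal-like than in osteoblast-like cells (2.66 ± 0.57, adjusted p = 0.0082). Its levels were 60.5 and 52.3 against 6.48 and 3.38 CPM, and the 52.3 CPM of library 2 lies under the level of 3 UMIs.

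In blood classes the receptor and transducer lists were read beside the shares of all genes called. In pro-B-like against mature B-like cells 5 of 18 receptors and 7 of 18 transducers were lower and 0 higher, beside 8.07% of all genes lower and 10.8% higher, with medians of -1.09 and -1.10 beside 0.04 over all genes. The receptor chain Il2rg, which pairs with IL7R, was among them (-2.53 ± 0.58, adjusted p = 0.00487), as were Tnfrsf13c, the BAFF receptor (-3.32 ± 0.75), the kinase Lyn (-2.68 ± 0.32, adjusted p = 2.01e-05) and Rgs1, which damps chemokine receptors (-4.45 ± 1.19). In resting pre-B-like against mature B-like cells 1 of 18 receptors and 2 of 18 transducers were lower, beside 1.75% of all genes, among them Bcl2, the survival factor (-3.97 ± 0.73). In erythroid progenitor-like against erythroblast-like cells 6 of 18 receptors and 6 of 18 transducers were lower, beside 18.3% of all genes. Higher was 1 transducer, beside 13.4%: Stat5a, which acts below several cytokine receptors (3.58 ± 0.61, adjusted p = 0.00027). Of the lower receptors, Csf3r, Itgal and Il6ra stood at 0 CPM in library 2 in both classes. Mcl1, a transducer called lower, stood at 94.7 and 82.9 against 85.0 and 89.7 CPM. Hemoglobin genes held 42.14% and 44.53% of the UMIs of erythroblast-like cells, and their part in these calls was not tested. The counts of this comparison are therefore a description and not a result. In immature against mature neutrophil-like cells, where 8.65% of all genes were lower and 18.0% higher, 6 of 18 receptors, with Csf3r, the G-CSF receptor, at -3.53 ± 0.85, and 7 of 18 transducers, with Socs3 at -3.74 ± 0.68, were lower and 0 higher. In the fit of stromal against blood classes, with 21.3% of all genes higher and 28.6% lower, 4 of 18 ligands were higher and 2 lower, so that the share of ligands called higher was near that of all genes, 3 of 20 receptors were higher and 11 lower, and 1 of 18 transducers was higher and 11 lower. The α4 integrin Itga4, the chain that binds VCAM1, was among the lower receptors (-4.80 ± 0.35). Ackr3, among the higher ones, held no UMI in T/NK cell-like cells, so that no fold is given.

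The genes whose levels across 16 classes were most like those of a member were then read out of 7262 genes, by Pearson's r of log2(CPM + 10), as a description. Classes of 1 library share its depth and its free RNA. For Cxcl12 these were Dpep1 and Aldh1a2 (0.999) and Angptl7 (0.998), for Kitl Adgrf5 (0.994), Ebf3 and Il34 (0.992), and for Il7 Cbln1 and Marc1 (1) and C6 (0.999). Since each of these factors had its highest level in the Lepr+ stromal-like class, such values mostly say that the genes share that class as the highest of the 16. Ebf3 is among the markers that named the Lepr+ stromal-like class, so that its value is not an independent match. Angptl7 is also among the 3 leading genes of the tenocyte-like cluster, so that its value holds only with that class left out. Angpt1 was closest to Foxs1 (0.983), Vcam1 to Cebpa (0.966), which is among the markers that named the class, Cxcr4 to Inpp5d (0.973) and Il7r to Sit1 (0.964). Kit, which was read in stromal and blood classes, had no gene above 0.855 (Tars2).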

How the data were processed

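Gene-barcode tables of UMI counts were deposited by the authors for the 2 libraries, made per the labels with Cell Ranger 6.1.2 and the build mm10 (submitters' processing notes), without normalization. A 3 prime kit was used, so that levels (CPM) are compared between classes and not between genes. All columns belonged to the 2 samples. Barcodes were filtered as stated in the report. Stromal and blood cells were separated and clustered with Seurat 5.3.0 (R 4.3.3), with 3000 variable genes, CCA anchors, 15 principal components and a resolution of 0.8, and 70 genes (members and listed genes) kept out. A cluster was named from the marker lists where at least 3 markers were found and they did not go against its 10 leading genes. Doublets were called by Scrublet (124 and 1 cells, so that the call hardly worked in library 2) and left in. UMIs were summed per class and library and tested with edgeR 4.0.16 (quasi-likelihood, TMM, Benjamini-Hochberg over all genes tested, threshold 0.05), on all classes of a compartment with at least 10 cells per library. For the Lepr+ stromal-like class, with 9 cells in library 2, this minimum was lowered to 5 after seeing the data. DESeq2 1.42.0 was an alternative.

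Same-numbered sums come from the same library, so that the numbers pair them. The main tests held no term for the library and treated the sums as independent. A fit with the library as a block was run as an alternative. The deviations of pairs of classes correlated at 0.047 to 0.37 among stromal and 0.039 to 0.579 among blood classes. The script was tested on simulated data: simulated log2 changes of 4 were called for 66.7% and changes of 2 for 11.9% of the altered genes in the comparison of Lepr+ stromal-like with P-SSC-like cells (8289 genes), and for 84.8% and 38.3% in that of pro-B-like with mature B-like cells (10565 genes). Named were the 8 members, at most 5 genes past the threshold per list and comparison by size of change, and for each member the 3 genes with the highest correlation, among genes of at least 50 CPM in a class. Itga4, 1 further receptor, and the Ackr3 levels of stromal classes were named after their values were seen. Ccl19, a symbol carried by more than 1 feature, was read from the first. Members and lists were chosen with earlier results of these data known. Human samples were not used here.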

Additional observations from a re-analysis of the deposited data

Results flagged for a closer look

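The barcodes that failed the filters (3656 in library 1 and 766 in library 2) also held UMIs of the members, above the limit of 3 counts and outside all comparisons of the report. In library 1 these were 601 UMIs of Cxcl12, 48 of Kitl, 4 of Il7, 14 of Angpt1, 40 of Vcam1, 230 of Cxcr4, 22 of Kit and 111 of Il7r. In library 2 they were 31 UMIs of Cxcl12, 4 of Angpt1, 4 of Vcam1, 63 of Cxcr4, 7 of Kit and 15 of Il7r, and 0 of Kitl and Il7. Which cells they came from was not tested.

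The reporter features, which no comparison of the report uses, also had UMIs in libraries labelled wild type. EGFP had 6837 UMIs in the kept cells of library 2 and 0 in those of library 1. Stromal cluster 3 of library 2, left unnamed, held 2870 of them in 38 of its 73 cells, and osteoblast-like cells held 986. For tdTomato the kept cells held 1482 UMIs in library 1 and 4627 in library 2, of which the P-SSC-like cells held 3 and 1475. The source of these UMIs was not tested.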

How the results depend on the processing

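No called result changed direction under the alternatives run. Of the log2 differences of the members under other settings with a test, 418 kept their side of the threshold, 16 fell short of it and 15 passed it. Leaving out 1 library gives values without a test, of which 22 moved by more than the spread between libraries and 68 did not. That spread comes from the same libraries that were left out in turn, so that staying within it is largely built in. The 68 values are therefore not read as a sign of stability. For Lepr+ stromal-like against P-SSC-like cells the number of genes called was 720, 454 with the members and listed genes allowed into the clustering and 396 with at most 5% mitochondrial UMIs. Against osteoblast-like cells it was 1335, and 579 and 874 under these settings, and against chondrocyte-like cells 1994, and 1264 at 5%. For pro-B-like against mature B-like cells it was 2156, 3678 with the library as a replicate block and 1385 at 5%, and for resting pre-B-like cells 433, 1159 with the block and 239 at resolution 0.4. For the erythroid comparison it was 3615, 1947 at resolution 1.2 and 1805 with the members allowed, and for neutrophils 3043 and 419 at resolution 0.4. Which cells moved was not tested. Besides the member calls given with the block in the report, it moved that of Vcam1 in erythroid progenitor-like against erythroblast-like cells, from a log2 difference of 2.84 (adjusted p = 0.104) to 2.99 (adjusted p = 0.0434), and it changed no other member call.

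With DESeq2's size factors in edgeR, the calls against chondrocyte-like cells split into 1193 higher and 744 lower (main 1012 and 982), those of neutrophils into 1669 and 1435 (2057 and 986; DESeq2 1364 and 1300) and those of stromal against blood classes into 3560 and 3068 (2849 and 3823; DESeq2 4666 and 3223), with the median log2 difference over all genes moving from -0.098 to 0.132, from 0.387 to 0.117 and from -0.178 to 0.11. The fitted Kit difference of stromal against blood classes had no usable error with the members allowed or at 5%, where more classes held 0 UMIs. The class with the highest mean Vcam1 was smooth muscle-like at resolution 0.4 and with the members allowed, and the class with the highest Cxcr4 or Il7r was resting pre-B-like at resolution 0.4. The planned comparison with osteogenic progenitor-like cells could not be made, since no cluster was given that name. The limits are 2 libraries, 9 Lepr+ stromal-like cells in library 2, and free RNA: blood markers were read in stromal cells and the reverse.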

Other observations

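Clusters that no marker list named held members too, and these values enter no comparison. Blood cluster 18 (90 and 31 cells), led by the basophil and mast cell genes Mcpt8 and Cpa3 and by Ctla2a, with Gata2, Cd34, Sparc and Col1a2 also among its leading genes, held 87.8 and 38.9 CPM of Angpt1 from 159 and 17 UMIs. In library 1 this was 36.9% of all Angpt1 UMIs, more than the 24.36% of the Lepr+ stromal-like cells. The same cluster held 54.1 and 36.6 CPM of Kit, and 112.1 and 389.3 CPM of Cxcr4.

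Stromal cluster 5 (42 and 78 cells), led by Mmp9 and genes of cell division such as Birc5 and Top2a, held 2442 CPM of Cxcl12 in library 1, in 22 of 42 cells, and 78.8 CPM in library 2. It held 172.5 and 10.3 CPM of Kitl, 232.3 and 14.8 CPM of Vcam1 and 78.2 and 33.1 CPM of Angpt1. Stromal cluster 13 (11 and 30 cells), whose leading genes are those of B cells (Igkc, Cd79b, Vpreb3), held 3790 and 35.5 CPM of Cxcl12 together with 194.1 and 197.7 CPM of Cxcr4 and 74.0 and 162.2 CPM of Il7r, and its 410 Cxcl12 UMIs of library 1 lay in 3 of 11 cells. Doublets of stromal and B cells were not separated from this cluster, and their part in these values was not tested.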
